A study of Jatropha curcas with 10 samples.

Results

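The genes described here are 80 transcripts of Jatropha curcas, an oilseed shrub, whose level stood above the starting level in every library taken 24 h and 48 h after treatment with GA3. They were chosen from measured values, among 28447 gene IDs listed for inflorescence meristems, whose dividing cells give rise to the flower clusters. For each gene the value was log2(RPKM + 1), where RPKM is the reads of a gene scaled for its length and for the depth of the library. A gene qualified when its 10 libraries averaged 5 RPKM or more, with a mean change at 48 h above 0, and a change at 48 h of at least 0.5 times the changes at 6 h and at 12 h. Of 14258 genes with that mean, 4525 qualified. They were then ranked by the lowest of the 4 libraries of 24 and 48 h minus the highest of the 2 libraries of 0 h, a distance called the margin here, and the first 80 were taken. The margin was above 0 in 516 of the 4525.

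The series holds 10 RNA-seq libraries of total RNA from inflorescence meristems of plants aged 3 years, 2 at each of 5 times (0, 6, 12, 24 and 48 h after GA3), with 15932010 to 24444339 reads per library. All times, 0 h included, carry the label of GA3 treatment, whose dose and mode of application the labels do not give, and none of the libraries used here is labelled as untreated. An effect of GA3, the passing of time and the hour of sampling therefore cannot be told apart. In bulk tissue, a change in the share of a cell type and a change of RNA per cell cannot be told apart either. The tissue could not be checked against its markers, because none of the IDs carries a gene name.

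GA3 is gibberellic acid, a hormone that promotes the elongation of stems, the germination of seeds and, in many plants, the transition to flowering. In the known pathway, gibberellin binds a receptor in the nucleus, and the receptor then leads to the breakdown of the DELLA proteins, which hold back growth and many transcripts. Feedback on the genes that make and inactivate gibberellin is a familiar part of the response. The tables list IDs without names, and 0 IDs matched the RefSeq table of 28617 genes. No member can therefore be placed in this pathway here, and members are described by ID, gene length and level, in the order of their time profile.

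The libraries of a time differed for many of these genes, mostly in the direction of their number. Library 1 was above library 2 in 18 of the 80 members at 0 h, and in 79, 77, 58 and 70 of them at 6, 12, 24 and 48 h. Among all 14258 genes averaging 5 RPKM or more the share with library 1 above by time was 61.5%, 38%, 43.8%, 41.2% and 48.3% (0, 6, 12, 24 and 48 h). At all 4 treated times together, library 1 was above library 2 in 51 members and below it in 0, against 20.5% and 35.2% of those genes. The labels do not say what the library numbers stand for. The number was fitted as a block in alternatives given below, and the cause of the difference between the numbers was not tested. The changes are therefore also given within library 1 and within library 2.

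The members' difference from 0 h had a median of 1.58 (log2) over 24 and 48 h together, while the median of all 17403 genes tested was -0.08. This difference was fixed by the choice of the members and is given as a description. The mean of the 4 later libraries ranged from 1.87 to 456.8 times the mean of 0 h, with a median of 3.24 times. It was at least 2 times the 0 h mean in 77 members, at least 4 times in 28 and at least 16 times in 9. Those 9 are all among 10 members, described first, whose later level was high in library 1, while their later change in library 2 had a median of 1.85 (log2). The highest fold, in JCGZ_02889, rests on 0 and 9 reads at 0 h. In 23 members even the lowest later library was at least 2 times the higher 0 h library. Together the members took 0.907% and 0.544% of all reads in libraries 1 and 2 of 24 h and 1.31% and 0.519% in those of 48 h, against 0.196% and 0.250% at 0 h. Non-overlap of the 4 later libraries with those of 0 h, which the rule required in effect, held in 4.22% of the 14258 genes in this direction and in 7.39% in the other. Taken alone, non-overlap with 0 h held for both libraries of 24 h in 9.35% of these genes above and 19.4% below, and for both of 48 h in 13.3% above and 16.3% below, while all 80 members lay above in each case.

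No member passed the test against 0 h at the later times. With limma across 17403 genes and Benjamini-Hochberg adjustment, 0 of the 80 were called at 24 h, at 48 h or in 24 and 48 h together (background 0%), and the smallest limma adjusted p of a member was 0.951, 0.931 and 0.857 in these comparisons. At an unadjusted p under 0.05 stood 44, 50 and 58 members, against 3.3%, 4.56% and 5.03% of all genes tested. Since these contrasts chose the members, the shares support nothing.

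Within library 1 the later change was larger than within library 2. Over 24 and 48 h against 0 h it had a median of 2.18 (log2) over the members in library 1, with a range of 0.71 to 9.44. In library 2 it had a median of 1.05, with a range of 0.61 to 2.59. Library 1 gave the larger later change in 70 of the 80 members, against 41.3% of the 14258 genes. At 0 h library 1 was the higher one in only 18 members, against 61.5% of those genes. The numbers pair the treated libraries but not those of 0 h, so each change within a number also carries the difference between the 0 h libraries, which mostly ran the other way. All values within a library number are above 0 by construction of the margin.

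**Figure D1:**
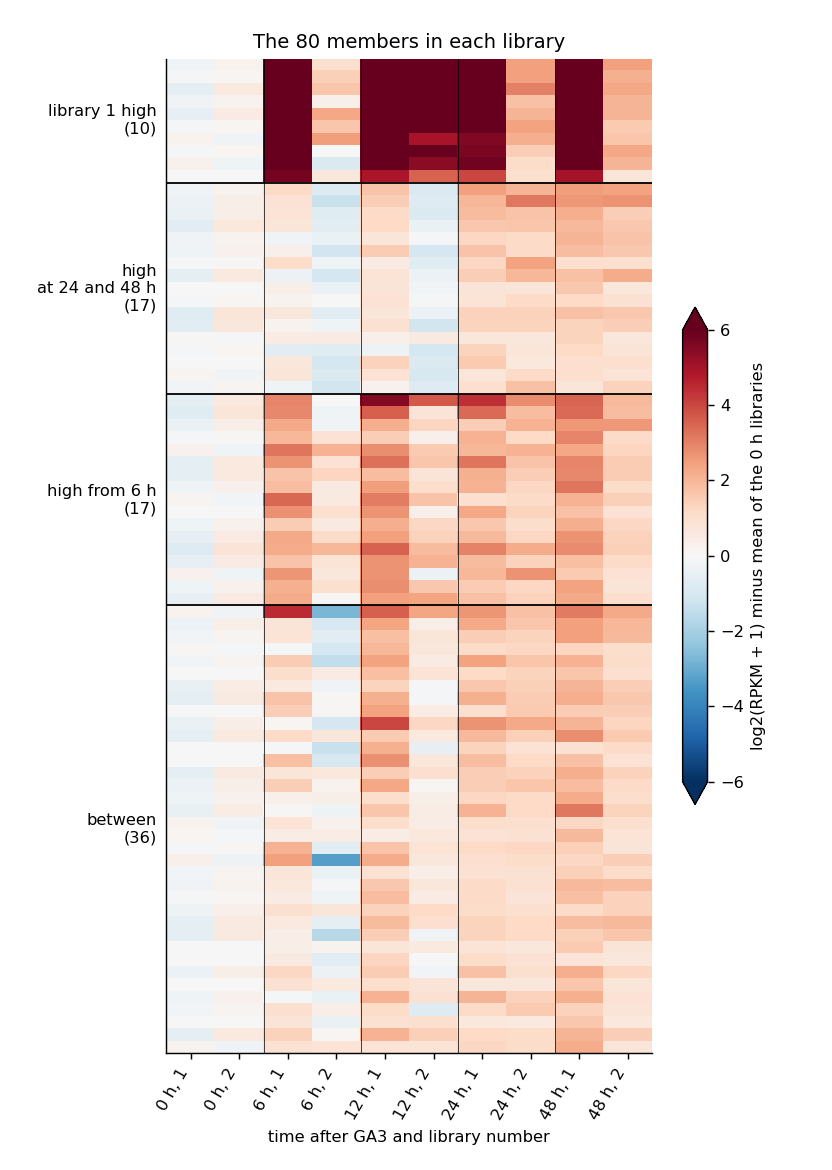
Change of each of the 80 members from the mean of the 0 h libraries, on the log2(RPKM + 1) scale, with 1 row per gene and 1 column per library, and colours held at a change of 6 in either direction. Rows are grouped by time profile, and the 10 rows at the top have the largest mean difference between library 1 and library 2 over the treated times.

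For description the members were divided into 4 profiles after their values had been seen, and the division carries no test. In 10 members library 1 exceeded library 2 by a mean of at least 3 (log2) over the treated times. In 17 members the mean change was under 0.5 at both 6 h and 12 h, although in library 1 most of them already stood above 0 h at these times. A further 17 had a mean change of at least 1 at 6 h. The remaining 36 lay between these limits.

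The 10 members with the largest mean library difference over the treated times were JCGZ_02887, JCGZ_02889, JCGZ_02890, JCGZ_02891, JCGZ_02895, JCGZ_02898, JCGZ_06695, JCGZ_08553, JCGZ_24896 and JCGZ_26969. They hold 7 of the first 10 ranks. Their median level was 2.06 and 2.75 RPKM in libraries 1 and 2 of 0 h, 1448 and 7.41 RPKM after 6 h, 958.5 and 449 RPKM after 12 h, 530.1 and 13.6 RPKM after 24 h, and 900.5 and 9.89 RPKM after 48 h. The high libraries were thus library 1 of every treated time and both libraries of 12 h, while library 2 of 6, 24 and 48 h lay near the 0 h level or several times above it. Library 1 exceeded library 2 by 23.8 to 519 times at 6 h, 8.99 to 76.0 times at 24 h and 21.4 to 129.8 times at 48 h, but by 1.37 to 3.19 times at 12 h. Within library 2 the later change had a median of 1.85 (log2), and within library 1 of 7.5. These genes took 0.856% and 0.00451% of all reads in libraries 1 and 2 of 6 h.

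JCGZ_08553 (474 coding bases), first by margin, had 6.83 and 9.25 RPKM at 0 h, 2769 and 16.6 after 6 h, 1996 and 1121 after 12 h, 1189 and 48.0 after 24 h, and 1649 and 48.8 after 48 h, each time in library 1 and then library 2. All 4 later libraries were above both of 0 h, and the lowest of them was 5.19 times the higher 0 h library. Its fitted change over 24 and 48 h was 4.88 ± 2.16 (log2, SE), and its libraries of 6, 24 and 48 h lay far apart within each time. JCGZ_02891 (474 bases), second, had 1.41 and 1.87 RPKM at 0 h, 1703 and 6.12 after 6 h, 1211 and 713.4 after 12 h, 656.1 and 13.5 after 24 h, and 1137 and 10.6 after 48 h. Behind these values were 12 and 17 reads at 0 h and 157 and 90 reads in library 2 of 24 and 48 h, so the low libraries were measured too.

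JCGZ_02890 (474 bases) had the highest mean of all members, 1280 RPKM. It was at 2.00 and 5.73 RPKM at 0 h, 4149 and 13.1 after 6 h, 2799 and 1540 after 12 h, 1725 and 35.5 after 24 h, and 2507 and 21.5 after 48 h. The same 5 libraries were high as for JCGZ_08553. With a mean library difference of 5.36 (log2) over the treated times it also differed most between the numbers, followed by JCGZ_02895 at 5.26. JCGZ_02889 (474 bases) had the largest mean change of any member at 6 h, 5.89 (log2), and JCGZ_02890 that at 12 h, 8.85. Library 1 of 0 h held 0 reads of JCGZ_02889, which allows up to 0.353 RPKM at 3 reads, and library 2 of 0 h held 9 reads. It reached 994.1 and 6.00 RPKM after 6 h, 645.8 and 407 after 12 h, 360.8 and 4.75 after 24 h, and 534.9 and 4.81 after 48 h.

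JCGZ_02898 (474 bases), sixth by margin, had 2.12 and 3.19 RPKM at 0 h, 1193 and 3.41 after 6 h, 705.6 and 410 after 12 h, 431.7 and 11.4 after 24 h, and 750.3 and 13.7 after 48 h. Its library 2 of 6 h lay just above the 0 h libraries, and those of 24 and 48 h a few times above them. JCGZ_26969 (1956 bases) was the longest of these 10 and had the largest change of 48 h against 24 h of all members, 1.19 ± 2.52 (log2, SE). It stood at 0.656 and 0.934 RPKM at 0 h, 414.7 and 0.799 after 6 h, 260.1 and 190.3 after 12 h, 89.1 and 4.06 after 24 h, and 260.3 and 8.05 after 48 h.

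**Figure D2:**
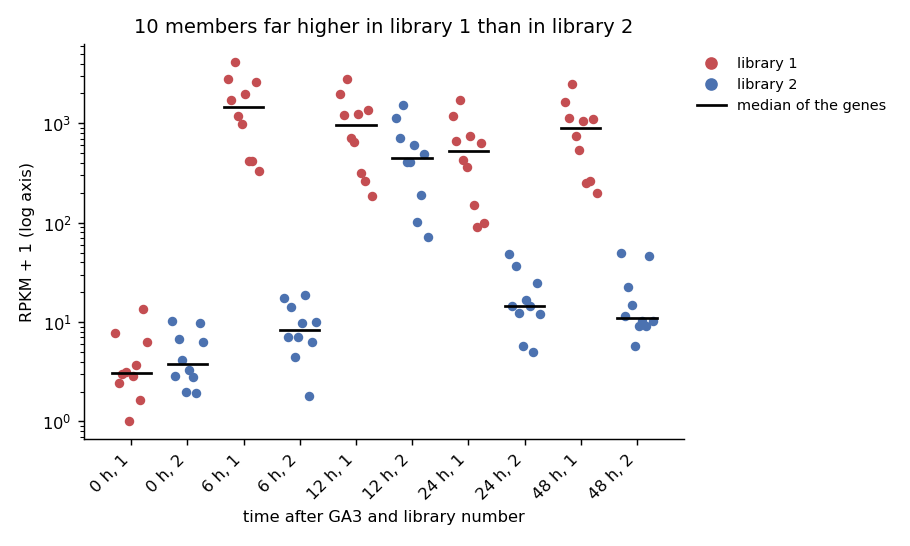
RPKM + 1 on a log axis for the 10 members that were far higher in library 1 than in library 2, in each library by time after GA3; points are genes and the bar is their median. The median is 1448 RPKM in library 1 and 7.41 RPKM in library 2 of 6 h, and 958.5 and 449 RPKM after 12 h.

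A library difference of this size was rare and had 1 direction. Among the 14258 genes, 43 had library 1 above library 2 by at least 3 (log2) over the treated times and 0 had library 2 above by as much. Of the 43, 10 were members, and 33 were not. Of the 33, 23 had a margin of 0 or below, so that some library of 24 or 48 h did not exceed both of 0 h, and 10 qualified with a margin above 0 but below that of the last member. JCGZ_08554 (474 bases), an example picked after its values were seen, had 802.5, 39.6, 1167 and 51.3 RPKM in the later libraries, against 30.5 and 6.94 RPKM at 0 h, with a margin of 0.37.

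Some members shared gene length or lay close in ID number, in a way the rule did not use. Of the 80, 8 had a length of exactly 474 bases, a length held by 33 of the 14258 genes, and 7 of the 8 belong to the 10 just described. The eighth, JCGZ_07627, chosen for naming after its values were seen, was high in every library, with 338 and 228.5 RPKM at 0 h, 2588 and 1197 after 6 h, 1916 and 840 after 12 h, 1106 and 1167 after 24 h, and 1386 and 674.6 after 48 h. All 8 of its treated libraries were above both of 0 h. The 474-base genes among the 14258 that are not members numbered 25.

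Locus tag numbers from JCGZ_02887 to JCGZ_02898 hold 12 IDs, of which 7 reached a mean of 5 RPKM, and all 7 were members. Of these, 6 belong to the 10 with the large library difference. The seventh, JCGZ_02894 (477 bases), also named after its values were seen, was already at 469.8 and 512.6 RPKM at 0 h and had 2088 and 317.3 after 6 h, 1588 and 857.8 after 12 h, 1131 and 1180 after 24 h, and 1345 and 844.7 after 48 h. Its libraries overlapped those of 0 h only at 6 h, where library 2 was lower than both. Of the 5 other IDs in this range, JCGZ_02888 (474 bases) had at most 0.662 RPKM in any library and JCGZ_02897 (1362 bases) had 5.27, 2.61, 3.28 and 1.31 RPKM in the later libraries, against 9.09 and 2.41 RPKM at 0 h. Neighbouring numbers are a property of the IDs, and genome positions were not used here. Whether genes of equal length in this range share reads, as near-identical copies would, cannot be told from the tables, so their separate levels are uncertain. Of the other members, 9 fell in 4 shorter runs of 2 or 3 members with gaps of at most 10 in tag number. Among the IDs of these runs with a mean of at least 5 RPKM, members were 2 of 3, 3 of 11, 2 of 6 and 2 of 6. How often such runs arise among other genes was not tested.

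In the 17 members with a mean change under 0.5 (log2) at both 6 h and 12 h, the median mean change was -0.04, 0.25, 1.39 and 1.40 (log2) at 6, 12, 24 and 48 h. The median of library 1 minus library 2 was 1.34, 1.22, -0.01 and 0.19 at these times. At 24 h the difference ran from -1.19 in JCGZ_12397 to 0.97 in JCGZ_02978, both named after their values were seen. Ranking by the lowest later library favours genes whose later libraries lie close together, so the small later medians are a description. Within library 1 the median change from 0 h was 0.59, 1.38, 1.58 and 2.00 at 6, 12, 24 and 48 h. Within library 2 it was -1.02, -0.96, 0.99 and 0.98. In library 2, 16 of the 17 stood below 0 h at both 6 h and 12 h, while in library 1, 15 of the 17 stood above it at both. JCGZ_06554 stood below 0 h in both numbers at both times. JCGZ_21058, named after its values were seen, had 50.3 and 50.03 RPKM after 6 h and 45.2 and 52.0 RPKM after 12 h, against 37.2 and 34.4 RPKM at 0 h, all 4 above both of 0 h. Among all 14258 genes, 25.6% were below in library 2 at both times (53.4% above) and 37.9% above in library 1 at both times (45.5% below). Of the 80 members, 23 were below in library 2 at both times and 32 above, while in library 1 it was 1 below and 76 above.

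JCGZ_06853 (567 bases), at rank 3 by margin, had 4.72 and 6.44 RPKM at 0 h, 13.9 and 2.66 after 6 h, 20.3 and 2.59 after 12 h, 34.5 and 25.5 after 24 h, and 35.7 and 33.8 after 48 h. The 4 later libraries lie within a narrow range, and the lowest was 3.95 times the higher 0 h library. JCGZ_14447 (567 bases), at rank 5, had 2.95 and 5.25 RPKM at 0 h, 8.19 and 0.984 after 6 h, 12.7 and 1.94 after 12 h, 18.8 and 43.5 after 24 h, and 29.6 and 30.8 after 48 h. For both, library 1 of 6 and 12 h lay above the 0 h libraries and library 2 of these times below them. Their fitted changes over 24 and 48 h were 2.34 ± 0.74 and 2.61 ± 0.76 (log2, SE).

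JCGZ_06554 (945 bases) and JCGZ_01718 (348 bases) had the smallest value for the larger one of the changes at 6 h and 12 h among the members. JCGZ_06554 had 38.7 and 47.2 RPKM at 0 h, 27.1 and 25.7 after 6 h, 34.1 and 20 after 12 h, 109.9 and 72.4 after 24 h, and 100 and 72.7 after 48 h. It was the 1 member with both libraries below both of 0 h at 12 h, and all 4 later libraries exceeded every earlier one. JCGZ_01718 had 22.6 and 28.9 RPKM at 0 h, 21.1 and 11.5 after 6 h, 31.2 and 14.4 after 12 h, 52.8 and 89.1 after 24 h, and 43.0 and 69.2 after 48 h. Here library 2 was the higher one at the later times.

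IDs outside the locus tags were 498 of the 14258 genes (3.49%), and the only member among them was Novel00891 (1001 bases). It had 5.52 and 15.8 RPKM at 0 h, 11.2 and 7.69 after 6 h, 18.5 and 3.82 after 12 h, 25.1 and 25.7 after 24 h, and 25.03 and 28.4 after 48 h. The longest member, JCGZ_02620 (3525 bases), also belongs here, with 12.5, 11.9, 23.4 and 11.7 RPKM in the later libraries, against 6.80 and 6.88 RPKM at 0 h.

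**Figure D3:**
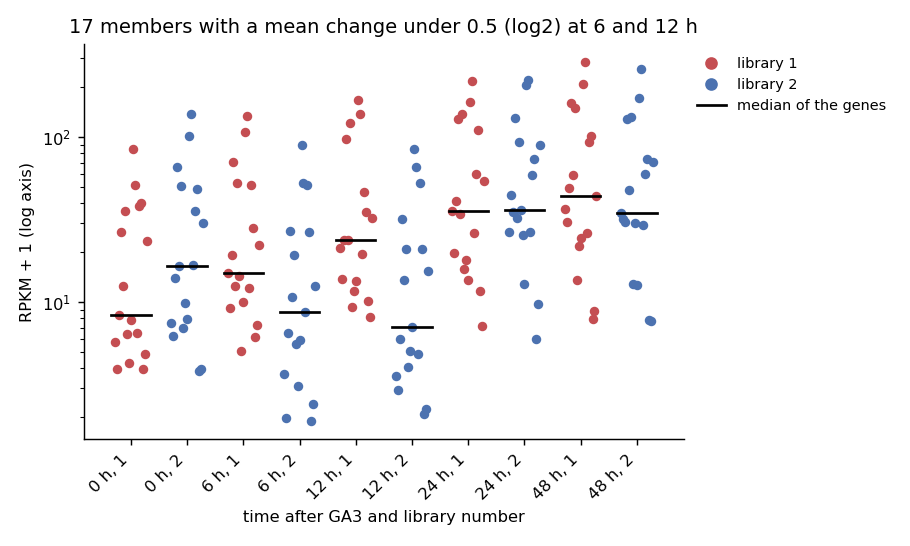
RPKM + 1 on a log axis for the 17 members with a mean change under 0.5 (log2) at 6 and 12 h, in each library by time after GA3; points are genes and the bar is their median. The medians are 34.5, 35.3, 43.0 and 33.8 RPKM in the 4 later libraries, and 7.30 and 15.4 RPKM in those of 0 h.

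In the 17 members with a mean change of at least 1 at 6 h, the median mean change was 1.49, 2.18, 1.80 and 2.04 (log2) at 6, 12, 24 and 48 h. Within library 1 the median change was 2.68 at 6 h and stayed between 2.32 and 2.99 afterwards. Within library 2 it was 0.61, 0.96, 1.13 and 0.94 at 6, 12, 24 and 48 h. All 17 were above 0 h at both 6 and 12 h in library 1, and 12 of 17 were in library 2. JCGZ_09023 (510 bases) had 2.41 and 6.65 RPKM at 0 h, 38.5 and 4.16 after 6 h, 230.9 and 63.9 after 12 h, 107.1 and 35.04 after 24 h, and 57.1 and 18.9 after 48 h. Within each library number its highest value was that of 12 h. JCGZ_26464 (774 bases) had the most negative change of 48 h against 24 h, -1.11 ± 0.97 (log2, SE), with 15.4 and 9.20 RPKM after 48 h, against 20.9 and 34.4 RPKM after 24 h. JCGZ_09023 was next at -0.88 ± 1.08 (log2, SE).

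The 36 members between these limits had median mean changes of 0.31, 1.17, 1.26 and 1.51 (log2) at 6, 12, 24 and 48 h. Their medians in library 2 were -0.55, 0.48, 0.97 and 0.96, and in library 1 they were 1.03, 1.95, 1.43 and 2.02. JCGZ_00400 (1731 bases), the member of lowest mean at 5.10 RPKM, had 1.22 and 1.87 RPKM at 0 h, 3.48 and 0.612 after 6 h, 7.75 and 3.12 after 12 h, 5.93 and 5.48 after 24 h, and 13.0 and 8.61 after 48 h. It shows the later level without the wide library difference of the first 10. JCGZ_18088, the shortest member at 186 bases, had 14.4 and 32.5 RPKM at 0 h, 74.2 and 22.8 after 6 h, 97.2 and 20.8 after 12 h, 98.8 and 64.4 after 24 h, and 103.4 and 67.9 after 48 h. JCGZ_09907 (1644 bases) had 98.8 and 94.1 RPKM after 48 h, against 56.3 and 48.3 RPKM after 24 h, the second most positive change between these times at 0.88 ± 0.37 (log2, SE; limma adjusted p of at least 0.905 for every member).

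**Figure D4:**
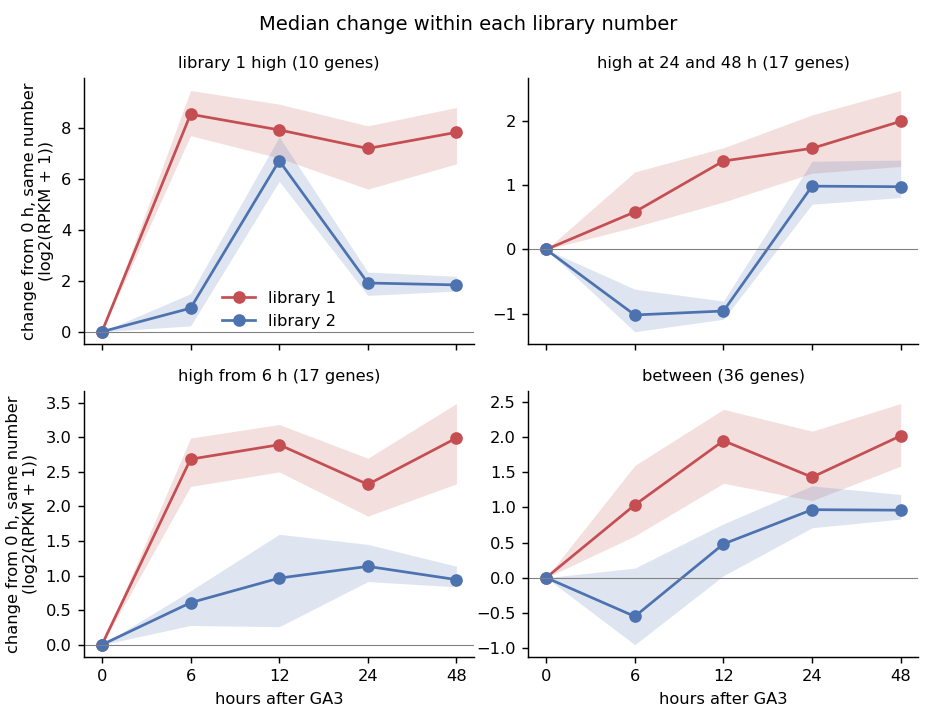
Median change of the members of each profile from the 0 h library of the same number, on the log2(RPKM + 1) scale, against hours after GA3 (times drawn at even steps, each panel with its own scale), with shaded quartiles over genes. In the 17 members high at 24 and 48 h, library 2 lies at -1.02 and -0.96 at 6 and 12 h and at 0.99 and 0.98 later, while library 1 lies above 0 at all 4 times.

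Counted over both libraries, 34 members had both libraries of 6 h above both of 0 h, against 27.6% of the 14258 genes, and 55 had both libraries of 12 h above, against 24.4%. Both libraries lay below in 3 members at 6 h (17.6%) and in 1 at 12 h (16.2%). The rule bounds the changes at 6 and 12 h from above and favours genes that are low in both 0 h libraries, so these counts and the calls against 0 h are descriptions, and nothing is read from them. Against 0 h, limma called 0 members raised and 0 lowered at 6 h (backgrounds 0.483% and 0.649%) and at 12 h (0.241% and 1.29%). The smallest limma adjusted p of a member was 0.0779 at 6 h and 0.0509 at 12 h, and 10 and 33 members had an unadjusted p under 0.05 (11.3% and 11.9% of all genes tested). When the fit held the 4 libraries of 12 h and 0 h and no others, limma called 13 members at 12 h, all raised (background 0.46%). With the library number as a block over all 10 libraries it called 6 members raised at 12 h (background 0.672%) and 1 at 6 h (0.816%). With the length correction as well it called 7 raised at 12 h (1.13%) and 1 at 6 h (1.37%). Both block fits assume the same number difference at 0 h as at the treated times. The numbers do not pair the 0 h libraries with the treated ones, so nothing is read from these calls.

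The rule did not compare 48 h with 24 h or 12 h with 6 h directly, and limma was run on these differences. The values of all these times still entered the rule, so the results for the members are descriptions. The conditions of the rule set a minimum on the change at 48 h and none on that at 24 h. This favours members that are higher at 48 h, so their median and direction between these 2 times are a description. No difference between 48 h and 24 h passed in any member: limma called 0 of the 80 (0 of all 17403 genes, background 0%; smallest limma adjusted p of a member 0.905). At an unadjusted p under 0.05 stood 1 member, against 1.89% of all genes, and voom on recovered reads called 0. The median change of 48 h against 24 h was 0.24 (log2) over the members and 0.11 over all genes tested. The change was above 0 in 56 members and below in 24, while 60.1% of the 14258 genes were higher at 48 h. Without library 1 of 48 h the median of the members was -0.14. Both libraries of 48 h were above both of 24 h in 16 members (17.7% of the 14258 genes) and below in 4 (8.26%).

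For 12 h against 6 h the median change of the members was 0.61 (log2), against 0.02 over all genes tested. A change above 0 was seen in 69 members, against 52.7% of the 14258 genes. The values of 6 and 12 h entered the rule through the mean of the 10 libraries and the limits on both changes. The median, the direction and the calls below are therefore descriptions of chosen genes. Limma called 0 members (background 0.00575% raised and 0.121% lowered; smallest limma adjusted p of a member 0.402), 8 had an unadjusted p under 0.05 (4.9% of all genes), and voom on recovered reads called 0. Both libraries of 12 h were above both of 6 h in 16 members (11.1% of the 14258 genes) and below in 1 (14.1%). The direction of the median rested on the libraries of 6 and 12 h: it was -0.08 without library 2 of 6 h, 0.08 without library 1 of 12 h, 1.28 without library 1 of 6 h and 1.31 without library 2 of 12 h. With the library number as a block over all 10 libraries, limma called 0 members, and also 0 with the length correction as well. That fit takes the number difference to be the same at 0 h, where it mostly ran the other way. A block over the 8 treated libraries alone was added after the data had been seen. With that block 3 members were called, all raised (backgrounds 0.293% raised and 0.557% lowered). They were JCGZ_09023, JCGZ_08150 and JCGZ_08750, with changes of 3.10 ± 0.34, 1.14 ± 0.17 and 1.74 ± 0.27 (log2, SE with the block) and limma adjusted p of 0.0161, 0.0388 and 0.0392. JCGZ_08150 (624 bases) had 65.8 and 43.6 RPKM after 12 h, against 32.9 and 17.1 RPKM after 6 h. JCGZ_08750 (1254 bases) had 33.8 and 14.0 RPKM after 12 h, against 6.60 and 5.20 RPKM after 6 h. In each of the 3, both library numbers were higher at 12 h than at 6 h.

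Members had a lower median length than the 14258 genes, to a degree that differed between the profiles. Their median length was 819 bases, with quartiles of 508.5 and 1388 bases, against a median of 1098 bases and quartiles of 693 and 1631 bases for the 14258 genes. Of the 80, 49 were below 1098 bases, among them the 8 of exactly 474 bases. The median was 474 bases in the 10 members with the large library difference and 774 in the 17 high from 6 h. It was 945 bases in the 17 with a mean change under 0.5 at 6 and 12 h. In the 36 members between it was 1086 bases, close to that of all 14258 genes. After a correction of each library for gene length, 64 of the 80 stayed in the list. The members' mean level had a median of 44.1 RPKM, against 26.1 RPKM for those genes, and 77 members had at least 10 reads in every library.

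**Figure D5:**
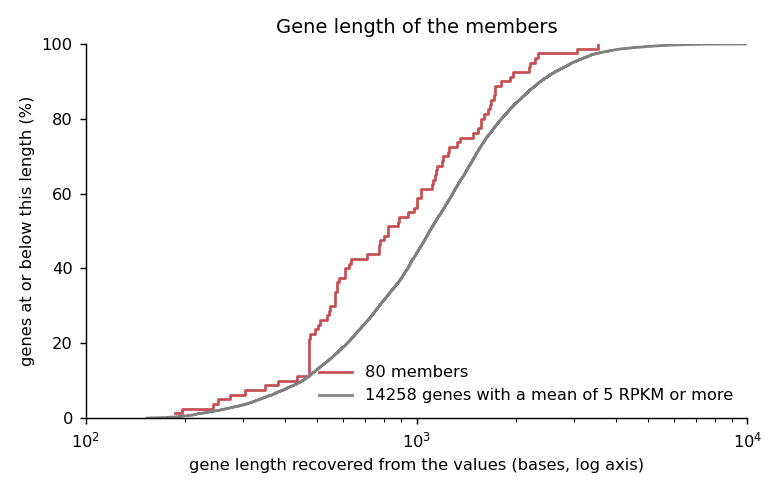
Cumulative share of genes at or below each gene length (bases, log axis) for the 80 members and for the 14258 genes averaging 5 RPKM or more. The curve of the members lies to the left, with a median of 819 bases against 1098 bases, and steps up at 474 bases, where 8 members sit.

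At the edge of the list the margin changed little. JCGZ_16280 and JCGZ_04326, ranked 79 and 80, had margins of 0.55 and 0.54 (log2), and the genes ranked 81 and 82, JCGZ_06176 and JCGZ_04207, had 0.53 and 0.51. JCGZ_16280 had 49.8, 46.3, 89.9 and 59.9 RPKM in the later libraries, against 13.7 and 31.4 RPKM at 0 h. The membership depended on the libraries at the ends of the comparison: 40 of the 80 stayed in the first 80 without library 2 of 0 h, 42 without library 2 of 48 h, and 57 to 79 when any other library was left out. Without library 1 of 48 h, 58 stayed, which included 3 of the first 10. The same rule turned round, for genes lowered at 24 and 48 h, gave 910 genes with a margin above 0, against 516 here, and margins of 1.40 at rank 1 and 0.51 at rank 80, against 2.26 and 0.54 here.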

How the data were processed

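The data were 10 libraries of Jatropha curcas inflorescence meristem, 2 at each of 5 times. The authors deposited RPKM per gene for each library. The tool Bowtie 0.12.2 and mm8, a mouse build, are listed without a role, per the submitters' processing notes. The counter, the annotation and the plant genome were not given in the sources used here. Reads and gene lengths were recovered from the steps of the RPKM values: 100% of 203696 values above 0 came within 0.01 of a whole read, and 99.5% of locus tag lengths were multiples of 3, so that they are coding lengths. Library totals were 15932010 to 24444339 reads, and 3 reads of a gene of 1 kb equal 0.123 to 0.188 RPKM; floors cover counting error only.

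Tests used limma 3.58.1 in R 4.3.3 with trend and robust moderation on log2(RPKM + 1), over the 17403 genes averaging 1 RPKM or more, all 10 libraries in 1 fit with time as a factor, and Benjamini-Hochberg adjustment at 0.05 within each of 7 comparisons. A fold on this scale understates the change of low genes. The labels do not say that libraries came from separate plants, so p-values measure only the spread between libraries, which may be technical. The members and lists were chosen with earlier results of these data known. Named members were those of rank 1 to 6, 2 on each side of the end of the list, and the extremes of mean level, of the changes at 6 and 12 h, of 48 h against 24 h, of the library difference and of length, with the best ranked ID that is not a locus tag; the 3 called with the library number as a block, the 10 of the first profile and others marked in the text were named after their values were seen. Lists by gene function were not run, because 0 IDs matched a name.

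Library numbers were checked for pairing by the correlation over genes of the difference between libraries 1 and 2. It was 0.562 to 0.721 between treated times and -0.359 to -0.17 between 0 h and the treated times, so the numbers pair the 8 treated libraries and not those of 0 h. Alternatives were other pseudocounts, filters, quantile normalization, a length correction, the library number as a block, voom on recovered reads, and leaving out each library.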

Additional observations from a re-analysis of the deposited data

Results flagged for a closer look

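The change of 12 h against 6 h was called in 3 members once the library number was a block over the 8 treated libraries, an alternative chosen after seeing the data. JCGZ_09023 had a change of 3.10 (log2), with a limma adjusted p of 0.0161 with the block and 0.756 without it. JCGZ_08150 had 1.14, with a limma adjusted p of 0.0388 with the block and 0.935 without it. JCGZ_08750 had 1.74, with a limma adjusted p of 0.0392 with the block and 0.617 without it. All 3 were higher at 12 h than at 6 h in both library numbers. With the planned block over all 10 libraries, limma called 0 members in this comparison. That block assumes the same number difference at 0 h as at the treated times, which the pairing of the numbers did not show. These fits are therefore not equal checks. The values of 6 and 12 h also entered the rule that chose the members, so the 3 calls are a description.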

How the results depend on the processing

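Of 219 alternatives, 201 were counted as the same, 16 as moved and 2 as reversed. Counts of called members, all 0 in the main fits, were the same only at 0. For the list, keeping 57 or 58 of the 80 members still counted as the same, while 34, 40 and 42 counted as moved. For medians the tolerance was 0.87 (log2), the spread of the members' median between libraries of a time. It exceeds the main medians of 48 h against 24 h (0.24) and of 12 h against 6 h (0.61). Short of a change of sign, these 2 medians could hardly be counted as moved. For the comparisons of 24 and 48 h with 0 h and with each other, 82 of 82 alternatives called 0 members in limma or voom (44, 50, 58 and 1 members had an unadjusted limma p under 0.05 in the main fits of 24 h, 48 h and both against 0 h and of 48 h against 24 h). For 12 h against 0 h, where 0 members were called, the count was 1 with a mean minimum of 5 RPKM, with quantile normalization and with non-robust moderation, 13 with only the libraries of these times, 6 with the replicate block, 7 with the length correction and replicate block, and 0 to 1 when each library was left out. For 6 h against 0 h it was 1 with quantile normalization, with only the libraries of these times, with the replicate block and with the length correction and block. For 12 h against 6 h the replicate block over the 8 treated libraries gave 3, as it did with the length correction. Over all 10 libraries the block gave 0 members (55 of all genes), and 0 with the length correction (64 of all genes). That block assumes the same number difference at 0 h as at the treated times, which the pairing of the numbers did not show. The block changed no other call. The median change ranged over the left-out libraries from -0.079 to 1.312 (log2) for 12 h against 6 h, below 0 without library 2 of 6 h, and from -0.139 to 0.499 for 48 h against 24 h, below 0 without library 1 of 48 h. The list kept 34 of its 80 members when ranked by the difference of means, and 40 to 79 when each library was left out. Over all genes, calls at 12 h against 0 h numbered 267 in the main fit, 526 with the block and 724 with the length correction and block; at 6 h against 0 h they numbered 197, 351 and 558, and 427 with only the libraries of these times; at 12 h against 6 h they numbered 22, and 148 with the block over the treated libraries. The cause of these differences was not tested.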
